A study of Mus musculus with 72 samples.

Results

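The snoRNA host transcripts Gas5, Snhg1, Snhg3, Snhg5, Snhg6, Snhg8, Snhg12 and Zfas1 were followed by level and by share of new RNA through the nucleus, the cytosol and the membrane fraction of mouse embryonic stem cells. The genes were chosen by symbol from a list of 9 hosts described as cytosolic targets of nonsense-mediated decay, and 8 of the 9 were found among 51826 gene rows. Snhg4 was not analysed here. Reads were counted per gene, and T positions and T-to-C (T2C) conversions were counted per exon and over all introns of a gene.

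All libraries came from the mouse embryonic stem cell line E14TG2a, grown on gelatin in 2i medium with LIF, which holds the cells in a naive state. The labels give no genotype difference between groups. The cells took up 4-thiouridine (4sU), a uridine analog that is read as C after alkylation and thereby marks RNA made during labeling. Labeling lasted 15, 20, 30, 40, 60 or 120 min, with 500 µM 4sU in the labels up to 40 min and 100 µM at 60 and 120 min. The study's methods also name 60 min cultures at the higher dose, so doses were not compared. Each culture was split with digitonin and then NP-40 into cytosol, membrane fraction and nucleus, after whole-cell extract had been set aside, and the buffers held the translation inhibitor cycloheximide. Of 72 libraries, 64 were used in the main fits, with 16 per fraction. The 120 min libraries of replicates 3 and 4 entered only an alternative fit. The study leaves out labeling with 500 µM for more than 60 min and names no replicates. The labels give these libraries 100 µM, so that they are the ones the study left out is inferred. A level in one fraction is a part of the RNA of that fraction, and levels of 2 fractions do not give molecules per cell. In bulk RNA, fewer cells with a transcript and less of it per cell cannot be told apart.

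Reads on genes numbered 13185351 to 52975732 in a library (median 21494524, n = 72). The 12 stem cell markers summed to between 5137 and 9967 CPM (reads per 1000000 reads on genes), with none under 1 CPM in any fraction. The 13 markers of endoderm, mesoderm, neural cells and fibroblasts summed to between 13.6 and 32.5 CPM, and 9 of the 13 had a median under 1 CPM in every fraction. RNAs known to stay in the nucleus were higher in the nucleus than in the cytosol in 6 of 6 cases, and RNAs made at the endoplasmic reticulum were higher in the membrane fraction in 8 of 8. The latter were also higher in the nucleus than in the cytosol in 8 of 8 cases, with a median log2 difference of 2.11, and the part of such RNA in the nuclear levels of the host transcripts was not tested. Whole-cell libraries labelled replicate 6 went against their labels: the median share of new RNA over genes was 37.8% in the 60 min library, against 11.3 to 22.03% in the other 3, and 17.5% in the 120 min library, against 39.1% in replicate 5. Whole-cell shares at 60 min are therefore given with and without replicate 6, and none are given at 120 min.

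Small nucleolar RNAs (snoRNAs) guide the modification and processing of ribosomal RNA and other RNAs. Most mammalian snoRNAs are cut out of introns of a host gene after splicing. The spliced exons of a noncoding host are left as a second product, which is capped and polyadenylated. Many hosts begin with a 5′ terminal oligopyrimidine (TOP) stretch, as ribosomal protein mRNAs do, and enter the cytosol and meet ribosomes. Their reading frames end early, with exon junctions downstream of the stop codon. Nonsense-mediated decay (NMD) is a translation-dependent pathway that degrades such RNAs. Gas5 was named for its rise in growth-arrested cells, a state in which translation and hence its decay are low. No sample here had NMD blocked, so decay by this pathway was not tested.

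In the annotation (GENCODE vM21, GRCm38), the 8 genes lie on chromosomes 1, 2, 3, 4, 9 and 19. Gas5, at chr1:161034422-161038539 on the plus strand, holds 10 annotated small RNA genes, and Snhg1, at chr19:8723475-8726443 on the plus strand, holds 8. Snhg12, at chr4:132308623-132311024 on the plus strand, holds 5. Zfas1, at chr2:167062934-167065862 on the plus strand, holds 3. Snhg3, at chr4:132348014-132353686 on the minus strand, holds the H/ACA snoRNA genes Snora73a and Snora73b. Snhg5, at chr9:88521050-88522929 on the minus strand, holds the C/D snoRNA genes Snord50a and Snord50b. Snhg6, at chr1:9941959-9944118 on the minus strand, holds Snord87, and Snhg8, at chr3:123507552-123508404 on the minus strand, holds Snora24.

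The start sequences bear on the link to ribosomal protein mRNAs. A TOP-like run was searched as a C followed by at least 4 letters that are each C or T, on the gene's strand, beginning within 3 bases of an annotated start. RefSeq starts (GRCm38.p6) were at hand for 7 of the 8 genes, with 2 starts for Gas5. The run was present in 4 of the 8 windows of 10 bases before to 20 bases after the start. It was present at 3792 of 32851 annotated starts (11.5%), and at 24 of 66 ribosomal protein genes (36.4%). The 4 windows with a run are shown 5′ to 3′ with the run in capitals, from Gas5 (second start) at chr1:161035156-161035185, Snhg8 at chr3:123508317-123508346, Snhg12 at chr4:132308668-132308697 and Snhg3 at chr4:132353667-132353696.
Gas5: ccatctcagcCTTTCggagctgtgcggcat
Snhg8: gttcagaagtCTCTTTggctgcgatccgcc
Snhg12: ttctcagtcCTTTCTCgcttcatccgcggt
Snhg3: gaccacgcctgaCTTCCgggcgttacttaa
In the windows of the first Gas5 start, Zfas1, Snhg5 and Snhg1, no such run began within 3 bases of the start. That of Snhg5 holds the letters further downstream. The windows are sequence descriptions and not measured transcription starts.

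In 1 annotated spliced transcript per gene, the frame that began at the first ATG ended more than 50 bases before the last exon junction in 8 of 8 genes, at distances of 73 (Snhg6) to 437 bases (Zfas1). The same held for 6792 of 9226 spliced noncoding genes (73.6%), so the arrangement is common among them. The frames held between 1 and 54 codons. The shortest was that of Snhg8, whose first ATG is followed at once by a stop codon. It is shown from transcript bases 84 to 113 of the GENCODE vM21 transcript, at chr3:123508292-123508321 on the minus strand, with the ATG and the stop in capitals.
Snhg8 frame: ccgcctacgagtATGTAGttgtatggtggg

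On read counts, levels of 7 of the 8 transcripts were higher in the nucleus than in the cytosol, a call made for 38.3% of all genes. Those of 5 were lower in the membrane fraction than in the cytosol, a call made for 28.7%. The test is given after the values. Gas5 had between 231 and 1027 CPM in the nucleus, with a median of 391, and between 131 and 218 in the cytosol, with a median of 175.5. Its membrane levels lay between 67.5 and 148 CPM, with a median of 84.99, and its whole-cell levels between 128 and 383. The nuclear and cytosolic values of Gas5 did not overlap. Every nuclear library was above every cytosolic one in 20.0% of the 13733 gene rows with a nuclear median of at least 1 CPM. Snhg1, which hosts the nucleolar U22 RNA gene Snord22 and others, had between 178 and 956 CPM in the nucleus, with a median of 303, and between 73.6 and 164 in the cytosol, with a median of 124. These groups did not overlap either, and the membrane levels of Snhg1 had a median of 79.8 CPM.

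Snhg6, host of Snord87, had between 87.6 and 226.5 CPM in the nucleus and between 24.0 and 66.6 in the cytosol, with medians of 132 and 42.4. Snhg12 had between 80.6 and 169 CPM in the nucleus and between 15.4 and 54.8 in the cytosol, with medians of 104 and 36.1. For both transcripts, every nuclear library was above every cytosolic one. Median nuclear and cytosolic levels were 236.5 and 89.1 CPM for Snhg5, 134 and 55.9 for Zfas1, and 84.2 and 39.1 for Snhg3. The groups of these 3 overlapped, but the nucleus was above the cytosol in 16 of 16 cultures for each.

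Snhg8 was the exception. It had between 24.8 and 69.2 CPM in the nucleus, with a median of 36.9, and between 17.5 and 54.7 in the cytosol, with a median of 37.9. The nucleus was higher in 11 of 16 cultures. Its cytosolic levels fell into separate ranges by replicate: the 6 libraries of replicates 3 and 4 had 17.5 to 21.9 CPM, and the 10 libraries of the other replicates 35.3 to 54.7 CPM. Such a split was seen in 7 of the 8 transcripts, all but Gas5, and in 27.3% of the same gene rows, so it was not particular to Snhg8. Snhg12, for example, had 15.4 to 19.9 CPM in replicates 3 and 4 and 31.1 to 54.8 CPM in the others. Per length of all annotated exons, the nuclear medians of the 8 transcripts stood between the 90.7th and the 97.8th percentile of 13236 genes, with Snhg5 the highest at 137 RPKM (reads per kilobase of exon per 1000000 reads) and Snhg8 the lowest at 43.2 RPKM. The exons of isoforms that keep introns are part of this length.

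**Figure D1:**
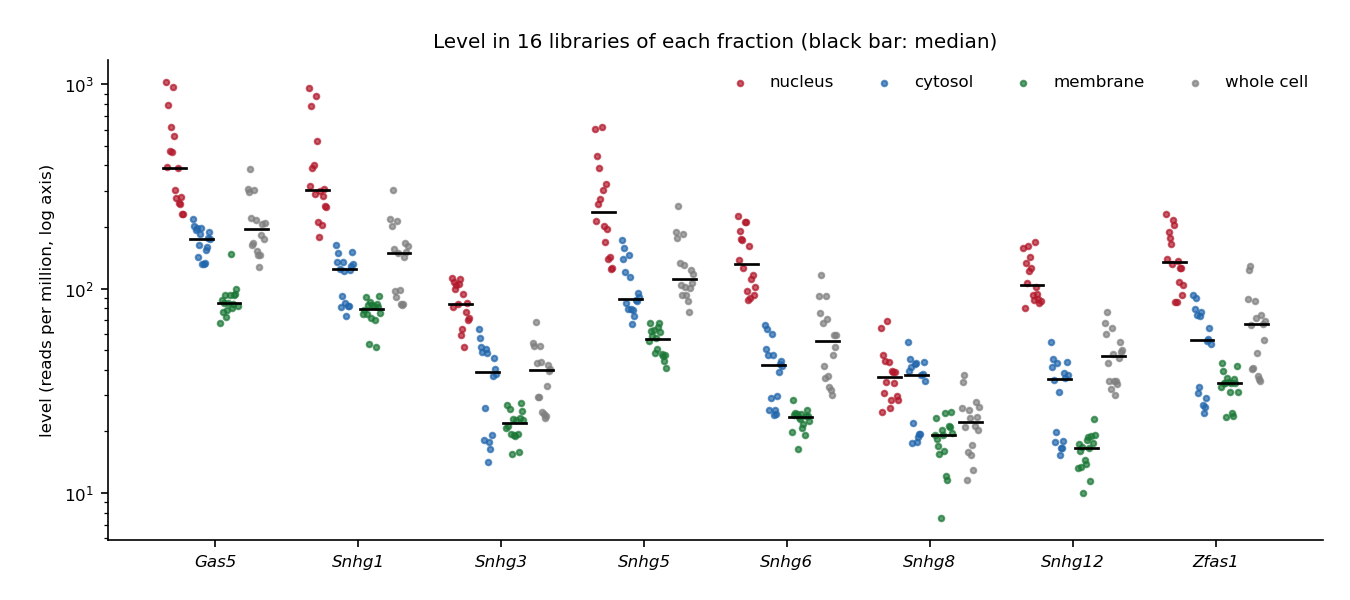
Level of each transcript in CPM (log axis) in the 16 libraries of the nucleus, cytosol, membrane fraction and whole cells, with points in order of labeling time and the median as a black bar. For Gas5, Snhg1, Snhg6 and Snhg12 all nuclear points lie above all cytosolic points, and for Snhg8 both medians are near 37 CPM.

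In edgeR's quasi-likelihood test with Benjamini-Hochberg adjustment over 18380 genes, genes were called at an adjusted p under 0.05 with a log2 difference over 0.5 in size. By this rule 38.3% of all genes were higher in the nucleus than in the cytosol, 28.3% were lower, and the median difference over all genes was 0.12 (7040 genes higher and 5197 lower). Without TMM factors the split was 8357 to 3524 and the median 0.39. Higher nuclear levels were called for 7 of the 8 transcripts, with a median over the 8 of 1.13. The differences were largest for Snhg12 (log2 difference 1.66 ± 0.096 SE, adjusted p = 1.052e-17) and Snhg6 (1.54 ± 0.082). They were 1.43 ± 0.12 for Snhg1, 1.19 ± 0.073 for Zfas1, 1.08 ± 0.12 for Snhg5, 1.06 ± 0.10 for Gas5 and 1.06 ± 0.071 for Snhg3. The difference of Snhg8 was 0.01 ± 0.11 (adjusted p = 0.94). Without TMM factors the same 7 were called, with a median over the 8 of 1.41.

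The replicates were run in pairs with different labeling times, and the size of the difference varied between pairs. Within replicates 1 and 2, 3 and 4, and 5 and 6, the log2 difference of Gas5 was 1.64, 0.92 and 0.38, and the last of these was not called (adjusted p = 0.1121 by edgeR). That of Snhg5 was 1.35, 1.23 and 0.43, with the last again not called (adjusted p = 0.1205 by edgeR). Snhg8 changed sign, from -0.12 to 0.40 to -0.38. The median over the 8 transcripts within these pairs was 1.37, 1.40 and 0.80. Labeling times also moved with these values. Nuclear Gas5 had 392 to 1027 CPM at 15, 20 and 30 min and 231 to 389.5 CPM at 40, 60 and 120 min. The 20 and 60 min times were each run in more than 1 pair. At 20 min its mean was 629 ± 225 CPM in replicates 1 and 2 and 540 ± 105 in replicates 3 and 4, and at 60 min 326.5 ± 89.1 in replicates 3 and 4 and 270.5 ± 15.0 in replicates 5 and 6 (SD, n = 2). Within replicates 3 and 4 the mean was thus higher at 20 min than at 40 min (292 ± 19.2) and 60 min, a difference that was not tested.

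Read counts of these genes may take in regions that only some isoforms mark as exons. In the annotation used here, exons of all isoforms together cover the whole of Snhg1 (2969 bases), Snhg8 (853), Snhg12 (2402) and Zfas1 (2929). In Gas5 they cover 3760 of 4118 bases. Levels on read counts of these genes are therefore not levels of spliced RNA alone, and which regions were counted was not tested. T counts of the exons, added after the data were seen, gave another value for Gas5. On all T counts of exon rows (27671 genes, 26.0% called higher in the nucleus and 18.8% lower), its log2 difference was 0.12 (adjusted p = 0.3776 by edgeR). It was 0.18 (adjusted p = 0.1448) on T counts of exons of spliced isoforms that overlap neither an annotated small RNA gene nor a shorter exon of the same gene, called clear exons below (27150 genes, 25.6% higher and 18.4% lower). Introns held 9.27 T counts for each exon T count of Gas5 in the nucleus (median, range 4.89 to 13.5) and 0.89 in the cytosol. Over all genes these medians were 0.49 and 0.11.

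The other 6 transcripts called on read counts stayed called on both kinds of T count, and the same 6 were called in each. Snhg12 had 2.43 on exon T counts and 1.59 on clear exons, Snhg3 2.12 and 1.52, and Snhg6 1.71 and 0.86. Snhg1 had 1.41 and 1.17, Zfas1 0.99 and 1.05, and Snhg5 0.94 and 0.99. Leaving out exons with a small RNA gene, or the longer of overlapping exons, thus gave lower values for Snhg12, Snhg3, Snhg6 and Snhg1. Snhg8 had 0.47 and -0.03 and was not called.

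**Figure D2:**
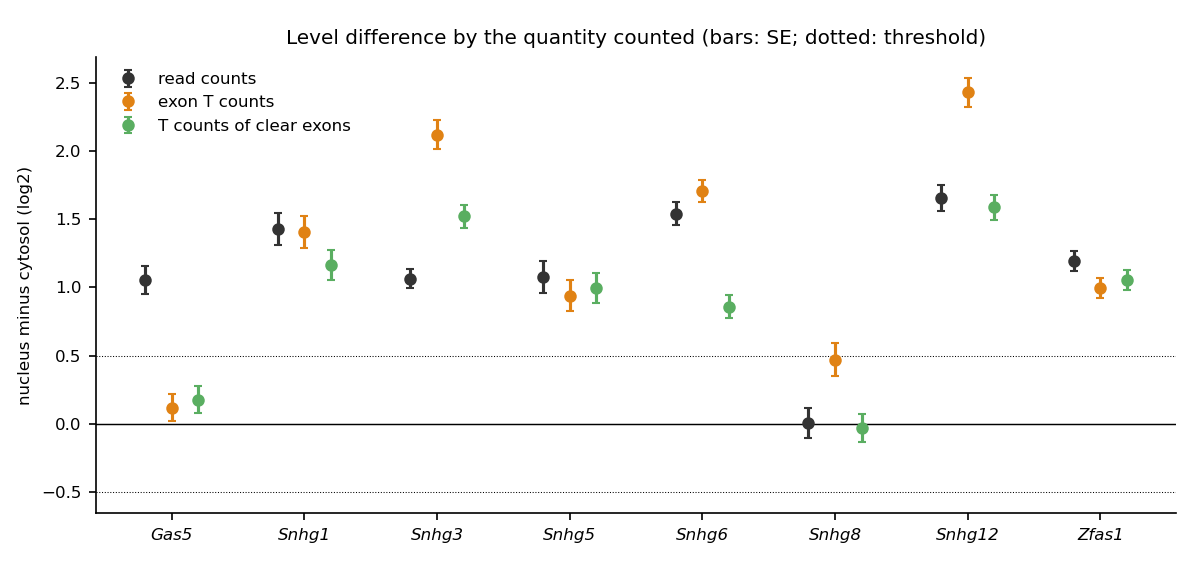
Log2 difference in level, nucleus minus cytosol, of each transcript on read counts, on T counts of all exons and on T counts of clear exons (points, with SE as bars; dotted lines at 0.5 and -0.5). Gas5 falls from 1.06 on reads to 0.12 and 0.18 on T counts, while 6 transcripts stay above 0.5 on all 3 quantities.

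In the membrane fraction, 22.4% of all genes were called higher than in the cytosol and 28.7% lower, with a median of -0.31 over all genes. Lower membrane levels were called for 5 of the 8 transcripts, with a median of -0.66. The difference was -0.81 ± 0.10 for Gas5 (adjusted p = 1.266e-08 by edgeR), -0.74 ± 0.097 for Snhg12, -0.73 ± 0.12 for Snhg5, -0.67 ± 0.11 for Snhg8 and -0.64 ± 0.082 for Snhg6. Snhg3 (-0.49), Zfas1 (-0.44) and Snhg1 (-0.41) did not pass the size threshold. In single cultures the membrane fraction was above the cytosol in 1 to 4 of 16. Within replicates 1 and 2, 3 and 4, and 5 and 6, the median over the 8 transcripts was -0.84, -0.38 and -0.67. Without replicate 1 or replicate 4, lower levels were called for 2 transcripts. With any 1 replicate left out, 2 to 5 transcripts and 1988 to 2503 genes were called lower, against 5277 genes with all replicates. Without TMM factors all 8 transcripts were called lower (median -0.80, with 3866 genes higher and 7849 lower), and without a filter on low counts only Gas5 was (median over the 8 of -0.41, with 4917 genes higher and 1489 lower). With DESeq2 the all-gene split was 4517 higher to 2438 lower, against 4121 to 5277 with edgeR, the all-gene median was -0.14, and 4 transcripts were called. On T counts, 3 were called over all exons (6.30% of all genes lower and 17.0% higher) and only Gas5 and Snhg12 over clear exons (6.50% lower and 17.1% higher).

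Whole-cell levels were compared between labeling times because shares over time are read as turnover only at steady levels. Of 16701 genes, 0% were called by edgeR between 20 and 60 min in replicates 3 and 4, with 780 at an unadjusted p under 0.05, and 0% between 60 and 120 min in replicates 5 and 6, with 113. DESeq2 also called 0, with 645 and 92 unadjusted. The 8 transcripts moved by -0.29 (Snhg6) to 0.36 (Snhg8) in log2 level in the former and by -0.38 (Zfas1) to -0.09 (Snhg3) in the latter. The latter uses both whole-cell libraries labelled replicate 6. Without them the values ran from -0.80 (Snhg8) to -0.12 (Snhg3), and without replicate 5 from -0.12 (Snhg12) to 0.17 (Snhg8). Standard errors were between 0.21 and 0.32, so that changes of this size were not detectable with 2 libraries per time.

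The share of new RNA is the T2C count over the T count, scaled by the conversion rate of the library, which ranged from 2.07 to 8.29%. No background of unlabeled conversions was subtracted, and shares can exceed 100%, since 1 rate is used for all genes of a library. After 20 min (replicates 1, 2, 3 and 4), nuclear exon shares of Snhg12 were 68.5, 77.3, 84.3 and 76.6%. Those of Snhg8 were 47.6, 56.6, 76.8 and 68.8%, and those of Snhg6 were 41.3, 53.4, 72.2 and 68.8%. The median over genes was 7.49% (mean of 4 libraries). On clear exons the 4 libraries ran from 47.9 to 65.9% for Snhg12, from 42.2 to 68.8% for Snhg8 and from 32.7 to 69.9% for Snhg6. All were above the median over genes.

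Nuclear shares at 20 min were also above the typical gene for Snhg5, at 38.0, 43.7, 56.9 and 57.1%, and for Snhg3, at 33.0, 35.6, 65.4 and 56.6%. Zfas1 had 29.9, 32.7, 59.6 and 51.1%, and Snhg1 had 20.3, 28.6, 44.4 and 38.9%. For all of these, replicates 3 and 4 were above replicates 1 and 2. The median over genes moved the same way, with 4.06 and 5.42% in replicates 1 and 2 and 11.4 and 9.09% in replicates 3 and 4. Gas5 was apart from the other 7, with 6.19, 7.78, 15.7 and 10.1%. At 15 to 40 min, the nuclear share of the other 7 stood at or above the 92.8th percentile of genes in every library.

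In the cytosol at 20 min, Snhg12 had 49.4, 54.2, 65.3 and 62.3% and Snhg3 had 47.96, 47.3, 53.7 and 37.5%. Snhg6 had 31.3, 32.7, 32.6 and 19.8%, and Snhg8 had 30.2, 25.7, 8.96 and 22.4%. Gas5 was the lowest, at 2.20, 1.48, 2.21 and 3.10%, near the all-gene median of 2.25% (mean of 4 libraries). Snhg12 was the highest of the 8 and Snhg3 the next in each of the 4 libraries. Zfas1 had a mean of 27.0 ± 8.1% (SD, n = 4), Snhg5 of 16.7 ± 2.5% and Snhg1 of 11.1 ± 4.2%.

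At 60 min (replicates 3, 4, 5 and 6), nuclear shares of Snhg6 were 102.5, 100.4, 107 and 98.8%, those of Snhg12 were 101, 99.6, 92.5 and 100.3%, and those of Snhg5 were 96.7, 94.1, 101 and 90.4%. Zfas1 had 94.8, 88.1, 87.5 and 78.0%. Gas5 had 62.0, 48.3, 69.5 and 60.7%. Nuclear RNA of the former 4 was thus nearly all new at 60 min, with Gas5 behind. Shares of Snhg1 (88.1, 74.7, 51.8 and 67.1%), Snhg3 (87.1, 64.9, 25.9 and 64.2%) and Snhg8 (92.5, 74.0, 21.1 and 53.1%) spread widely, with replicate 5 the lowest in each.

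In the cytosol at 60 min, Snhg12 (107, 97.9, 125 and 105%) was close to fully new. Snhg3 was high but spread widely, at 87.1, 71.8, 125 and 113.5%, with 89.6 ± 29% (SD) on its clear exon. Zfas1 had 78.6, 63.9, 73.0 and 75.4%, Snhg5 62.3, 54.1, 84.3 and 81.4%, and Snhg1 66.4, 55.3, 70.4 and 67.4%. Snhg6 had 41.3, 30.6, 80.6 and 64.7%. Here replicates 5 and 6 were above replicates 3 and 4, as in the median over genes (20.6 and 18.1% against 9.29 and 9.33%). Snhg8 had 18.8, 21.3, 43.0 and 42.5%, and Gas5 14.5, 12.3, 24.5 and 19.2%, the lowest of the 8 in each library.

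At 120 min (replicates 5 and 6), the cytosolic share of Gas5 had risen to 32.1 and 37.5%, while its nuclear share was 65.2 and 65.4%. Snhg5 had 90.4 and 90.3% in the cytosol. The cytosolic share of Snhg8 was 29.7 and 30.7%, and that of Snhg6 was 52.1 and 44.4%. Neither was above its mean at 60 min, which was 31.4 ± 13% for Snhg8 and 54.3 ± 23% for Snhg6 (SD, n = 4). That mean also takes in the other replicates. In replicates 5 and 6 alone, both transcripts had lower shares at 120 min than at 60 min, a fall that was not tested. In replicates 5 and 6 the typical gene meanwhile rose from cytosolic medians of 20.6 and 18.1% to 37.3 and 36.6%. Snhg8 thus ended below the typical gene in the cytosol, having been far above it at 20 min.

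**Figure D3:**
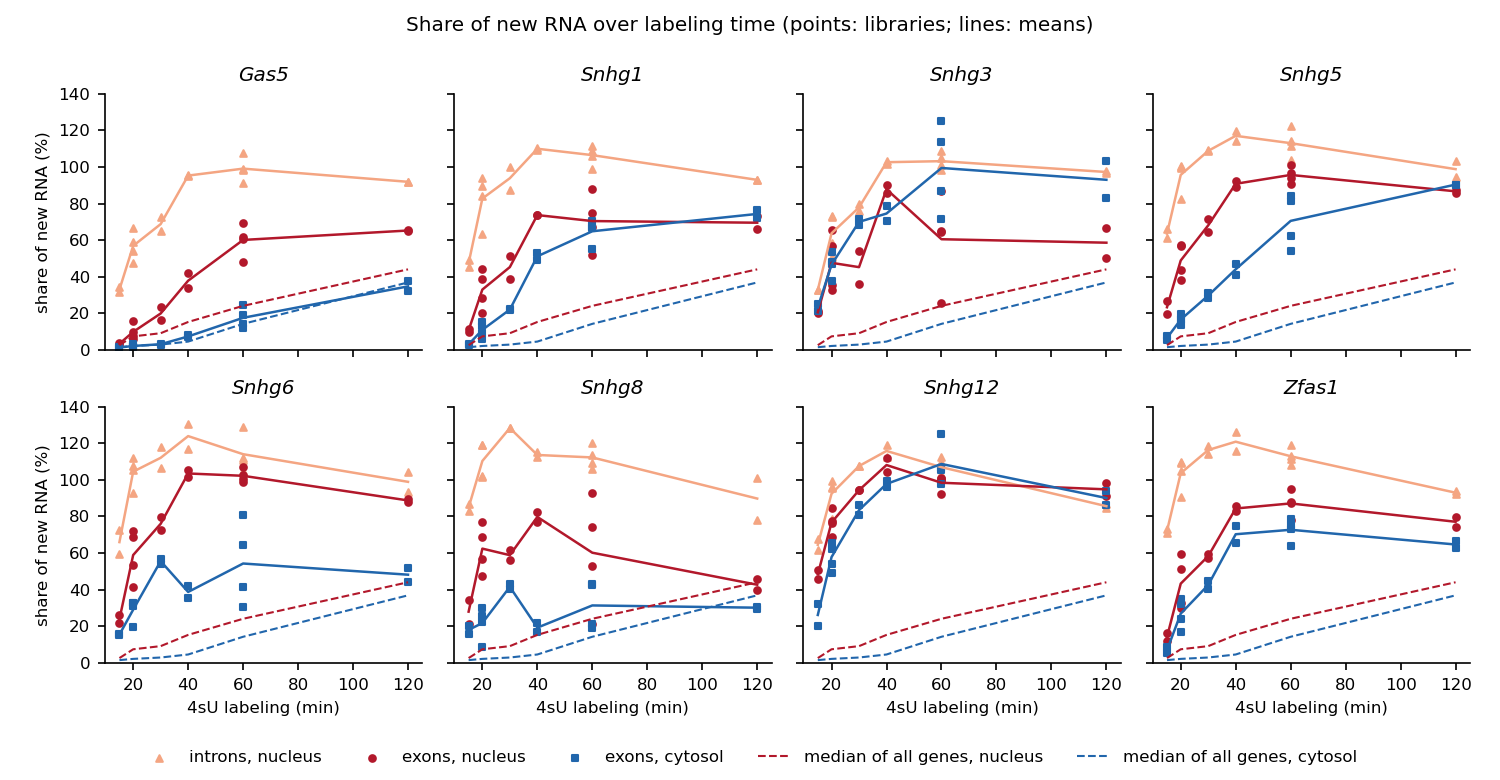
Share of new RNA in percent over 4sU labeling time in minutes for each transcript, in nuclear introns, nuclear exons and cytosolic exons. Points are libraries and solid lines are means. Dashed lines are the medians of all genes for exons of the nucleus and of the cytosol. Cytosolic Gas5 rises slowly to 32.1 and 37.5% at 120 min, cytosolic Snhg12 is near 100% from 40 min, and cytosolic Snhg8 and Snhg6 are no higher at 120 min than at 30 min.

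As a group, the 8 transcripts had median shares at 60 min of 78.8% (nucleus) and 67.7% (cytosol), against medians of 24.8% over 13914 genes and 14.9% over 12864 genes. All 8 were above the upper decile of genes in the nucleus (49.8%), and 6 of 8 were above that of the cytosol (44.3%), the exceptions being Gas5 and Snhg8. In whole cells at 60 min, means over 4 libraries and without replicate 6 were 103 and 106% for Snhg12, 83.3 and 84.3% for Snhg5, 79.8 and 83.0% for Snhg6 and 70.8 and 74.2% for Zfas1. They were 69.9 and 66.0% for Snhg3, 66.1 and 65.7% for Snhg1, 45.3 and 47.2% for Snhg8 and 33.2 and 29.9% for Gas5. The replicate that goes against its label moved none of these means by more than 4 percentage points.

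Cytosolic and nuclear shares were compared at 60 and 120 min with limma, on log2 shares centred on the median over genes in each library (12255 genes, with the same thresholds). Of all genes 22.3% were called higher in the cytosol and 16.1% lower, with a median of 0.05. The median of the 8 transcripts was 0.32. Snhg3 (1.36 ± 0.21, adjusted p = 0.0002905), Snhg12 (0.66 ± 0.11, adjusted p = 0.0003432) and Snhg1 (0.56 ± 0.11, adjusted p = 0.001414) were called higher in the cytosol. Gas5 was called lower (-0.91 ± 0.16, adjusted p = 0.0006923). Not called were Zfas1 (0.34), Snhg5 (0.31), Snhg8 (-0.13) and Snhg6 (-0.37).

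Centring matters for the direction, since the typical cytosolic share was below the nuclear one by 0.55 on the log2 scale. Without centring, 466 genes were higher and 5794 lower, and Snhg1 (-0.03), Snhg5 (-0.29) and Zfas1 (-0.26) turned to the lower side, while Snhg3 stayed higher (0.76) and Gas5 lower (-1.51). Snhg3 was then the only transcript called higher, since Snhg12 (0.07) and Snhg1 lost their calls, and Snhg6 (-0.97) and Snhg8 (-0.73) were called lower beside Gas5. Without replicate 5 or replicate 6, Gas5 kept its value (-0.92 and -0.91) but not its call (adjusted p = 0.1105 and 0.1108). Snhg12 likewise had 0.59 and 0.74 (adjusted p = 0.1038 and 0.06575), and Snhg1 0.46 and 0.67 (adjusted p = 0.1385 and 0.06742). Within replicates 5 and 6 alone, Snhg3 was called higher and Gas5 lower. Within replicates 3 and 4, Snhg3, Snhg12, Zfas1, Snhg1 and Snhg5 were called higher and Gas5 lower.

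On clear exons (11861 genes, 22.0% called higher and 15.0% lower) the calls of 4 transcripts changed. Gas5 remained lower in the cytosol (-0.90). Snhg6 (-0.85) and Snhg8 (-0.67) were now called lower as well, and Snhg12 (0.58) was called higher. Snhg3 had 0.48 and Snhg1 0.36, and neither was called. Exons that overlap a small RNA gene number 2 in Snhg1 and 1 in Snhg3, and 0 in Snhg6 and Snhg8, where those left out overlap a shorter exon. In replicate 5 at 60 min, the nuclear share of the Snhg8 gene row was below that of every listed exon, none of which was under 51.0% in any library. The row of Snhg8 thus also holds counts outside its listed exons, and their part in its changed call was not tested. Snhg5 (0.29) and Zfas1 (0.35) were close to their values over all exons. Gas5 was lower and Snhg12 higher under both definitions of the exons.

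**Figure D4:**
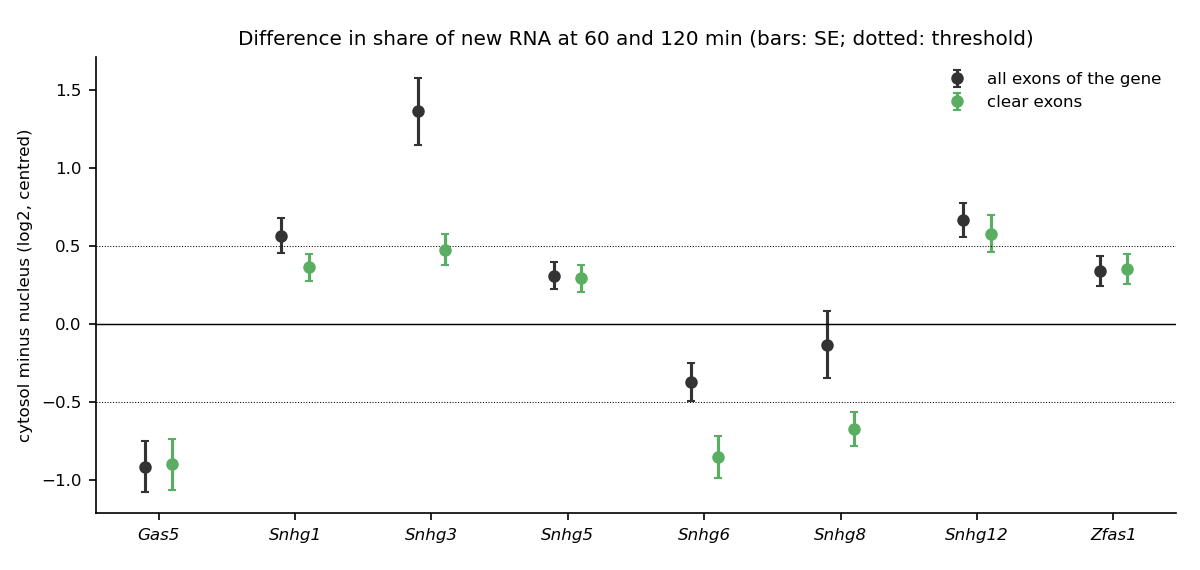
Log2 difference in centred share of new RNA, cytosol minus nucleus, at 60 and 120 min for each transcript, over all exons and over clear exons (points with SE as bars; dotted lines at 0.5 and -0.5). Snhg3 drops from 1.36 to 0.48 and Snhg6 from -0.37 to -0.85 when exons with small RNA genes or longer overlapping exons are left out, whereas Gas5 stays near -0.9.

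The wide nuclear spread of Snhg3 and Snhg8 at 60 min lay beside small RNA counts. The exon of Snhg3 that overlaps Snora73a had a nuclear share of 49.0 ± 27% and a cytosolic share of 112 ± 26%, and its clear exon had 94.7 ± 13% and 89.6 ± 29% (SD, n = 4). In clear exons, nuclear shares of Snhg3 were 94.2, 77.4, 109 and 98.5%, so replicate 5 was no longer the lowest. The row of Snora73a held 18742, 24792, 135789 and 31893 nuclear T counts in replicates 3, 4, 5 and 6, with shares of 43.2, 21.3, 4.20 and 12.3%. The row of Snora73b, a nested gene that overlaps neither listed exon of Snhg3, held 21722, 26722, 195281 and 45824. Its shares were 55.5, 34.7, 5.27 and 14.7%. Replicate 5 had by far the most counts on each of these small RNAs and the lowest share.

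Snora24 in Snhg8 had shares of 65.3, 9.51, 2.33 and 9.31% with 739, 3045, 50233 and 7918 T counts. Snord22 in Snhg1 had 33.1, 22.7, 3.67 and 5.84%, with 148468 T counts in replicate 5 against 8086, 11519 and 38394 in the others. Snora73a and Snora61, the latter in Snhg12, had 4.20 and 4.46% in replicate 5. In all 5 small RNA rows with enough counts, the nuclear share was thus lowest and the count highest in replicate 5. Clear-exon shares of Snhg8 were 90.7, 80.5, 67.2 and 62.8% in the nucleus and 18.03, 18.8, 40.1 and 37.1% in the cytosol. The all-gene medians on clear exons were also lower in the cytosol, at 8.82 to 19.5%, than in the nucleus, at 19.2 to 26.9%. The part of small RNA reads in the levels of the hosts was not tested beyond the clear exons.

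Of the 32 annotated small RNA genes inside the 8 hosts, 23 had a nuclear median of at least 1 CPM, and the nuclear median was above the cytosolic one in all 23, as in 60.6% of all gene rows with that nuclear median. The ratio of medians ranged from 3.55 to 157.5, with a median of 15.8, and in 20 of the 23 every nuclear library was above every cytosolic one, against the 20.0% of gene rows given above. Snora73b had a nuclear median of 80.8 CPM and a cytosolic one of 10.6, and Snord78 in Gas5 had 65.0 and 4.11. These libraries were selected for poly(A) RNA, and reads on a small RNA gene may come from the small RNA or from host RNA that still holds the intron.

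Between the membrane fraction and the cytosol, 0 of the 8 transcripts differed in share by the call rule of limma, at background rates of 6.44% higher and 8.98% lower. On clear exons 0 of 8 differed as well, at 5.96% higher and 8.74% lower. Over all exons values ran from 0.03 (Zfas1) to 0.44 (Snhg8), with a median of 0.19 against 0.12 for all genes. Snhg5 had an adjusted p of 0.03593 by limma with a difference of 0.27, under the size threshold, and it was the only transcript of the 8 with an adjusted p under 0.05. At 60 min, membrane shares of Snhg12 were 103, 86.8, 93.1 and 98.4%, and those of Gas5 were 23.9, 10.2, 18.3 and 19.5%. As in the cytosol, Gas5 had the lowest mean membrane share of the 8 (17.98%), and Snhg3 (99.3%) and Snhg12 had the highest.

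Nuclear introns mark RNA that is not yet spliced, together with introns that are kept. At 20 min, intron shares of Snhg8 were 102, 119, 102 and 119%, and those of Snhg6 were 92.8, 112, 108 and 106% (replicates 1, 2, 3 and 4). Zfas1 had 90.8, 105, 109 and 110%, and Snhg5 82.4, 99.6, 100.1 and 100.4%. Introns of these 4 were close to fully new within 20 min. Snhg12 had 78.3, 96.3, 95.6 and 99.4%, Snhg1 63.6, 84.2, 93.7 and 89.4%, Snhg3 51.0, 58.2, 73.2 and 72.6% and Gas5 47.6, 54.2, 66.5 and 59.2%. The all-gene median of nuclear introns was 31.2% (mean of 4 libraries), below every value of the 8 transcripts.

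The gap between introns and exons in the nucleus was narrower for 7 of the 8 transcripts than for the typical gene. In the centred comparison at 20 min (limma, 11282 genes, 20.8% called higher in introns and 23.6% lower), 7 of 8 were called lower, with a median of -1.28 against -0.06 for all genes. The values were -1.93 ± 0.15 for Snhg12 (adjusted p = 0.0008358), -1.73 for Snhg3, -1.36 for Snhg8, -1.34 for Snhg6, -1.21 for Snhg5, -0.88 for Zfas1 and -0.83 for Snhg1. Gas5 had 0.40 ± 0.14 (adjusted p = 0.06521). In uncentred shares introns were above exons for all 8, by 0.27 (Snhg12) to 2.59 (Gas5), against an all-gene median of 2.13, so the negative values say that the gap was narrower than that of the typical gene. The gap was still 1.37 for Snhg1 and 1.31 for Zfas1. Where exon shares are already high, as in Snhg12, a gap of the typical size would need intron shares far above full labeling. Exon shares of all 7 called transcripts were above the median over genes, so this ceiling bears on each of the calls. Its part in them was not tested. On clear exons (20.2% of genes higher and 24.3% lower) 7 of 8 were again called lower. Within replicates 1 and 2 and within replicates 3 and 4, the median over the 8 transcripts was -1.288 and -1.265. Zfas1 and Snhg1 lost the call without replicate 3 or 4 (adjusted p between 0.05421 and 0.06718).

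Shares along the gene differed most in Gas5. In the nucleus at 60 min, its exons that lie 1703 to 2761 bases from the 3′ end had mean shares of 33.2 to 40.4%, and exons within 1013 bases of that end had 62.4 to 81.6%. The 2 exons in between had 46.5 and 37.4%, and the annotated first exons had 1.36 to 6.75%, on 402 to 751 T counts. Nuclear Gas5 was thus newest near its 3′ end. In the cytosol, exon shares lay between 7.94 and 23.99%, and those of the first exons were 5.49 to 5.57%. Snhg1 had exon shares of 56.6 to 90.6% in the nucleus and 41.5 to 73.7% in the cytosol. Zfas1, none of whose exons overlaps a small RNA gene, had 76.1 to 96.8% and 64.5 to 76.5%.

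In Snhg6, a 614-base exon that contains a 108-base clear exon had a nuclear share of 110 ± 4.6% and a cytosolic share of 87.7 ± 31%, whereas the clear exons had 75.2 to 103% and 26.3 to 41.9%. The row of the gene combines them. Clear-exon shares of Snhg6 were 92.7, 82.6, 95.6 and 85.2% in the nucleus and 22.5, 18.9, 48 and 38.7% in the cytosol. Exons of Snhg8 had 67.9 to 81.7% in the nucleus and 20.4 to 31.0% in the cytosol, without an exon that stood apart.

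**Figure D5:**
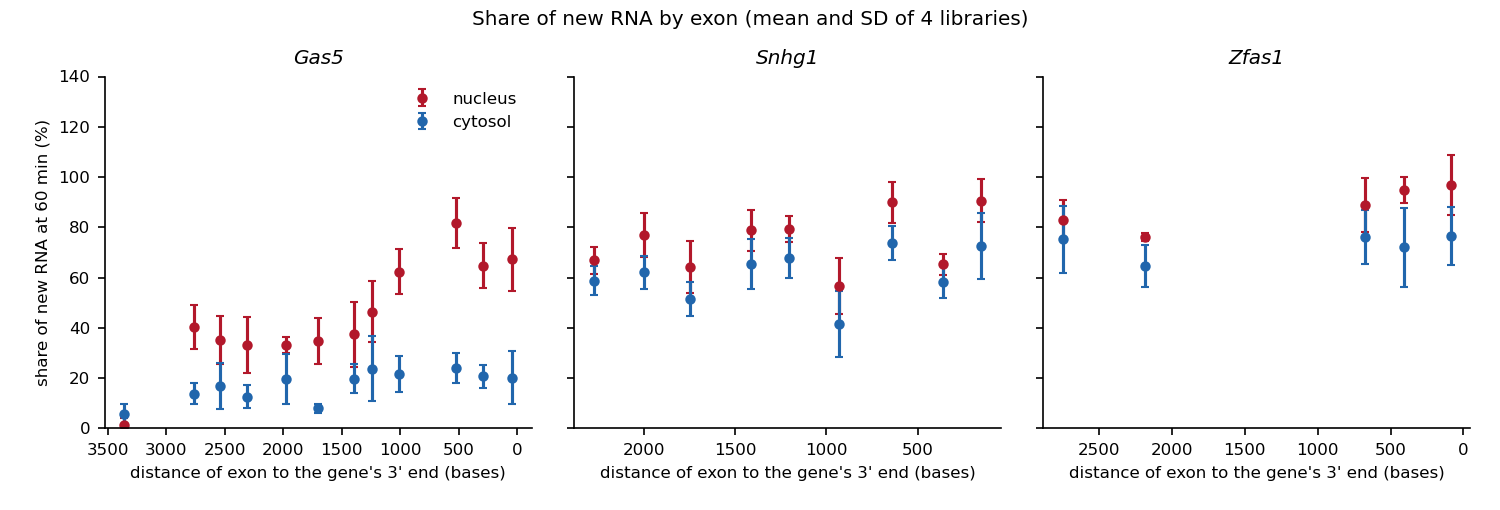
Share of new RNA at 60 min in percent (mean and SD of 4 libraries) of each exon of Gas5, Snhg1 and Zfas1 against its distance in bases from the 3′ end of the gene, in the nucleus and the cytosol. Nuclear Gas5 exons within 1013 bases of the end lie at 62.4 to 81.6% and those at 1703 bases or more at or below 40.4%.

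A 2-step model of nuclear loss followed by cytosolic loss, with a delay of 5 min, was fitted to mean exon shares over time to place the transcripts on one scale. Nuclear half-lives were 7.78 min for Snhg12, 12.2 for Snhg6, 15.2 for Snhg5, 19.3 for Zfas1, 20.6 for Snhg8, 25.0 for Snhg3, 29.2 for Snhg1 and 59.8 for Gas5, against a median of 142 min over 11865 genes. Each fit that left out 1 replicate kept this order for Snhg12 and Gas5 at the ends, with 7.60 to 8.07 min and 56.3 to 62.8 min. On clear exons the nuclear order was Snhg12 at 11.6 min, Snhg5 at 14.99, Snhg3 at 15.4, Snhg6 at 15.55, Snhg8 at 18.4, Zfas1 at 19.3, Snhg1 at 28.9 and Gas5 at 59.8, so that Snhg3 moved ahead of Snhg6, Zfas1 and Snhg8. Cytosolic half-lives were 3.802 min for Snhg12, 5.68 for Zfas1, 8.27 for Snhg1, 16.7 for Snhg5, 31.8 for Snhg6, 62.8 for Gas5 and 90.4 for Snhg8, with a median over genes of 15.2 min. With 1 replicate left out, Gas5 ran from 57.7 to 70.1 min, Snhg6 from 23.8 to 44.2 and Snhg8 from 75.35 to 98.4. Their jackknife SDs were 22.6, 36.1 and 42.1 min. With shares as fractions, the root mean square errors of these cytosolic fits were 0.023, 0.23 and 0.20. Those of the nuclear fits were 0.27 for Snhg8 and 0.21 for Snhg3. Cytosolic half-lives of Snhg6 and Snhg8 are thus loose. Snhg3 was at the lower bound of 1 min and had 3.67 min on clear exons. On clear exons the cytosolic value of Snhg6 was 88.2 min and that of Snhg8 110 min. Cytosolic values depended on leaving the ratio of levels free: fixed by the levels, Gas5 had 24.3 min, Snhg8 19.6 and Snhg6 3.84.

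Other noncoding hosts, protein-coding hosts, ribosomal protein genes and NMD-related genes were described beside these transcripts. Of 12 other long noncoding hosts, 10 were tested for level: 7 were higher in the nucleus than in the cytosol and 1 lower, with a median of 1.45, from -0.75 for Snhg18 to 2.7 for Snhg11. Of 40 protein-coding hosts, 5 were higher and 28 lower, with a median of -0.93, from -2.72 for Rps12 to 1.29 for Eif4a2. Of 76 ribosomal protein genes, which overlap the former list by 18, 75 were lower, with a median of -1.43. The medians of noncoding and coding hosts of snoRNAs thus lay on opposite sides of the all-gene median of 0.12. The 12 NMD factors and NMD-sensitive transcripts were near it, with 4 higher, 3 lower and a median of 0.08, from -1.01 for Atf4 to 1.65 for Tbl2.

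In shares, the medians of noncoding and coding hosts again lay on opposite sides of the all-gene medians, which were 24.8% (nucleus) and 14.9% (cytosol) at 60 min. Unlike its levels, the shares of the NMD list had medians above those of all genes. At 60 min the other noncoding hosts had median shares of 61.3% (nucleus) and 96.7% (cytosol), up to 131% for cytosolic Dancr, and the protein-coding hosts 13.7 and 4.55%. Ribosomal protein genes had 8.27 and 3.86%, and the NMD list 39.4 and 25.2%. In the cytosol against the nucleus, 6 of 7 other noncoding hosts were called higher in share (median 0.67, largest Snhg15 at 1.14), while 2 protein-coding hosts were higher and 10 lower. Introns against nuclear exons at 20 min had a median of -1.07 in the other noncoding hosts (1 higher and 4 lower of 6), 1.09 in protein-coding hosts (25 higher and 1 lower) and 1.82 in ribosomal protein genes (70 higher and 1 lower). In the NMD list it was -0.76, with 1 higher and 6 lower. The ceiling on intron shares named above bears on these medians too, and its part in them was not tested.

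Likeness to the 8 transcripts was measured as the distance to their median profile over 6 values, each scaled by its SD over 11282 genes: the log2 differences in level of the nucleus and of the membrane fraction against the cytosol, and the centred log2 shares at 60 and 120 min in 4 fractions. The nearest genes outside the list were Eif4a2 (distance 0.27), Ss18l1 (0.32), Cramp1l (0.32), Clk4 (0.41), Syde1 (0.43), Rbl2 (0.45), Casp2 (0.45) and Rictor (0.46). Eif4a2, an RNA helicase of translation initiation, is itself on the list of protein-coding hosts. Its log2 difference in level was 1.29 in the nucleus and -0.76 in the membrane fraction against the cytosol. Among the listed transcripts, Zfas1 was the nearest to the median profile (rank 1 of all genes) and Snhg1 had rank 5, whereas Snhg8 had rank 1504 and Gas5 rank 2119. Without whole-cell replicate 6, 7 of these 8 neighbours remained, with Gm47283 in place of Rictor.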

How the data were processed

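Counts of reads per gene, and of T positions and T2C conversions per exon and per gene's introns, were deposited by the authors without normalization. Per the labels and the study's methods, stranded libraries of poly(A) RNA were aligned to GRCm38 (mm10), and the submitters' processing notes name STAR 2.7.6, HTSeq 0.11.1 and RSEM 1.3.3. Each library's conversion rate was deposited as a fraction. The deposited ratio, T2C over T counts scaled by this rate, is called the share here and was recomputed as a percent from the counts. Reads on no gene were 30.39 to 48.77% and stayed out of library sizes.

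CPM used all reads on genes. Levels were tested by quasi-likelihood in edgeR 4.0.16 (R 4.3.3; TMM after filterByExpr) over the nuclear, cytosolic and membrane libraries, with 1 group per fraction, time and replicate pair, and over whole-cell libraries separately. Shares were tested with limma 3.58.1 on log2((T2C + 0.5)/(T + 1)/rate), for genes with at least 400 T counts in each of 6 libraries per fraction (60 and 120 min), or of 4 nuclear libraries at 20 min for exons and introns alike. Adjusted p-values are Benjamini-Hochberg over all genes. Replicates are separately passaged cultures of 1 line. Each model was also run on simulated data in which 200 genes were changed by 1 on the log2 scale. The level model recovered 199 of 200 with 13 false calls among 15266 genes. The share model recovered 193 of 200 with 6 false calls among 12255. In the data far more genes were called, with 7040 higher and 5197 lower in nuclear than in cytosolic level. The simulated rates therefore do not give the error rate of the calls on the listed transcripts. Half-lives came from least squares in Python 3.11.15 with scipy 1.17.1.

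Fractions of one number and time came from the same culture. Deviations from group means correlated at -0.105 to 0.446 between nucleus and cytosol (over 0.1 in 6 of 8 conditions) and at 0.179 to 0.558 between membrane fraction and cytosol. The replicate block was an alternative, as were DESeq2 1.42.0, other filters, pseudocounts and T minimums, no centring, and leaving out each replicate. Clear exons, T counts as levels and within-pair contrasts were chosen after seeing the data. Gene IDs were named from GENCODE vM21 (51633 of 51826 rows matched). The transcripts, the gene lists and the rule for the 8 nearest genes were chosen with earlier results of these data known. Named are all listed transcripts, these 8 genes and the extremes of each list. The depth behind a share is its T count, and intervals are given between replicates, not from counting.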

Additional observations from a re-analysis of the deposited data

Results flagged for a closer look

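There were 2 values that stood apart from the other 3 libraries of their group, out of 56 groups of 4 libraries examined, of which chance would set apart about 1 in 20. The whole-cell share of Snhg8 at 60 min was 58.72% in replicate 3, against 39.74, 40.23 and 42.67% in the other replicates. The nuclear intron share of Snhg5 at 20 min was 82.42% in replicate 1, against 99.58, 100.1 and 100.4%. In replicate 1 the nuclear intron shares of the other 7 transcripts at 20 min were also the lowest of the 4 libraries.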

How the results depend on the processing

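Over 816 values recomputed under alternatives for the 8 transcripts, 697 kept direction and side of the threshold or moved less than their spread, 44 lost a call, 19 gained one, 40 changed sign and 16 half-lives moved. The replicate block, in which fractions of one culture are paired, gave 11966 called genes for nucleus against cytosol, 9376 for membrane fraction against cytosol and 4588 for cytosolic against nuclear share, against 12237, 9398 and 4700 without it. It added a call for Snhg3 in the membrane fraction (-0.51) and changed no other call on the 8 transcripts.

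Counts of all called genes moved by over 1.5 times in these cases. Without a filter on low counts, edgeR called 49 genes between 20 and 60 min in whole cells (10 higher and 39 lower) and 53 between 60 and 120 min, where the filtered fits called 0. The cytosolic against nuclear share had 1057 to 5121 calls when 1 replicate was left out and 2602 within replicates 5 and 6. The membrane against cytosolic share had 1889 calls, and 165 to 2598 with 1 replicate left out. Nuclear introns against exons had 5009 calls, 10196 without centring (10168 higher and 28 lower), 2081 to 4181 with 1 replicate left out and 2332 within replicates 3 and 4. Leaving out a replicate of a pair leaves fewer residual degrees of freedom, and the lone library is assumed to vary like the others. Level counts with 1 replicate left out were 11852 to 12643 (nucleus) and 6354 to 6839 (membrane fraction, of which 1988 to 2503 lower, against 5277 lower with all replicates).

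Signs turned mostly in small values. The nuclear against cytosolic level of Snhg8 was -0.12 within replicates 1 and 2, -0.38 within replicates 5 and 6, -0.228 to 0.334 with 1 replicate left out (below 0 without replicate 1, 3, 4, 5 or 6) and -0.027 on T counts of clear exons. Without replicate 6 and without replicate 5, the whole-cell difference between 60 and 120 min was -0.41 and 0.014 for Gas5, -0.796 and 0.171 for Snhg8 and -0.758 and 0.037 for Zfas1. In the cytosolic against nuclear share, all labeling times gave 0.20 for Snhg6 and 0.049 for Snhg8, no centring gave -0.033 for Snhg1, -0.29 for Snhg5 and -0.26 for Zfas1, and Snhg8 had -0.399 without replicate 5, 0.135 without replicate 6 and 0.175 within replicates 5 and 6. In the membrane against cytosolic share, Zfas1 had -0.01 at a minimum of 2000 T counts and -0.005 to 0.07 with 1 replicate left out (below 0 without replicate 5). All labeling times gave -0.25 for Snhg1, -0.17 for Snhg6, -0.057 for Snhg12 and -0.23 for Zfas1. No centring gave -0.041 for Gas5, -0.092 for Snhg1, -0.03 for Snhg3, -0.09 for Snhg12 and -0.19 for Zfas1. Within replicates 3 and 4 it was -0.10 for Snhg1, -0.14 for Snhg12 and -0.15 for Zfas1, and within replicates 5 and 6 it was -0.033 for Snhg6. Uncentred, nuclear introns exceeded exons by 1.37 for Snhg1, 0.47 for Snhg3, 0.98 for Snhg5, 0.86 for Snhg6, 0.84 for Snhg8, 0.27 for Snhg12 and 1.31 for Zfas1. By construction, centring removes the all-gene gap, and the other causes were not tested. Shares of genes under 400 T counts were not given.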
